A study of Mus musculus with 6 samples.

Results

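Satellite cells (SCs) carry on their surface a set of receptors, proteoglycans and adhesion molecules by which they are recognised, held in their niche and told when to leave quiescence. The RNA levels of 10 genes of this kind are described here, chosen by name as surface molecules of quiescent and activated SCs together with the ligand of one of them. They are *Calcr*, *Cd34*, *Vcam1*, *Cxcr4*, *Met*, *Sdc3*, *Sdc4*, *Cav1*, *Chodl* and *Hgf*. Each of the 10 names was found in 1 row of the deposited table, which holds 55416 genes.

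The cells came from digested mouse muscle, were sorted as Sca1-/CD11b-/CD34+/α7-integrin+ cells, and were then grown for 4 days on Matrigel in a medium with fetal bovine serum, chick embryo extract and basic fibroblast growth factor. Of 6 RNA-seq libraries, 3 were from WT mice and 3 from mice with a systemic knockout of lactoferrin (*Ltf*-KO), made with CRISPR-Cas9 in C57/BL6N zygotes. No other treatment was given to either genotype. The labels give no age for the donors, while the study's methods state a general age range for its adult mice. The labels number the libraries but do not say whether each came from its own mouse, so the p-values measure the spread between these libraries, which may be technical. CD34 protein is named in that gate, but the antibodies listed in the study's methods are against CD31, CD45, Sca1 and α7-integrin, so it is not clear whether *Cd34* was part of the selection. Because *Ltf* is deleted in the whole animal, both the niche from which the SCs came and the SCs themselves lacked it.

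In resting muscle, SCs sit between the fibre and its basal lamina. The calcitonin receptor encoded by *Calcr* helps to keep them quiescent, and its RNA is lost when they start to divide. Hepatocyte growth factor (*Hgf*) bound to its receptor MET is a classical signal for activation, heparan sulphate on the syndecans holds such growth factors at the cell surface, CXCR4 receives the chemokine CXCL12, and VCAM1 binds integrins on neighbouring cells. Caveolin-1, encoded by *Cav1*, coats caveolae, small pits of the plasma membrane. The comparison asked whether cultured SCs without *Ltf*, in which the study examined proliferation, differ in the RNA of these molecules.

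The values are TPM, a transcript abundance in which reads are corrected for gene length and every library is brought to the same total. Levels can therefore be compared between genes, but the sequencing depth of a value is not known. The libraries summed to between 993650 and 994356 TPM. The cultures carried the RNA of myogenic cells in every library, with *Myod1* at 748 to 816 TPM, *Itga7* (α7-integrin) at 371 to 416 TPM and *Pax7* at 36.6 to 43.3 TPM. Of the genes whose products the sort or the staining selected against, *Ly6a* (Sca1) was at 1.33 to 3.21 TPM, *Pecam1* (CD31) at 1.02 to 2.71 TPM, *Itgam* (CD11b) at 0 to 0.07 TPM and *Ptprc* (CD45) at 0 to 0.16 TPM. The targeted gene *Ltf* was listed at 0.12, 0.02 and 0.02 TPM in WT and at 0.02, 0.03 and 0 TPM in *Ltf*-KO libraries, so this gene gives no check of the genotype labels.

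The marker genes fell into several ranges of level. *Cav1*, *Sdc3* and *Sdc4* had means over the 6 libraries above 100 TPM, *Met*, *Cxcr4* and *Vcam1* lay between 40.2 and 69.8 TPM, and *Cd34* was at 5.70 TPM. *Hgf*, *Chodl* and *Calcr* were all under 1 TPM. *Cav1*, at 420.5 TPM, stood above 97.5% of the 12956 genes whose mean reached 1 TPM, *Sdc3* above 91.2%, *Met* above 84.3%, *Vcam1* above 73.9% and *Cd34* above 26.2%. Neighbours in this order kept their order in 6 of 6 libraries, without overlap of their ranges, except for *Met* and *Cxcr4*, which were in that order in 3 libraries, and *Hgf* and *Chodl*, in that order in 2. These pairs do not differ in level beyond their spread.

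**Figure D1:**
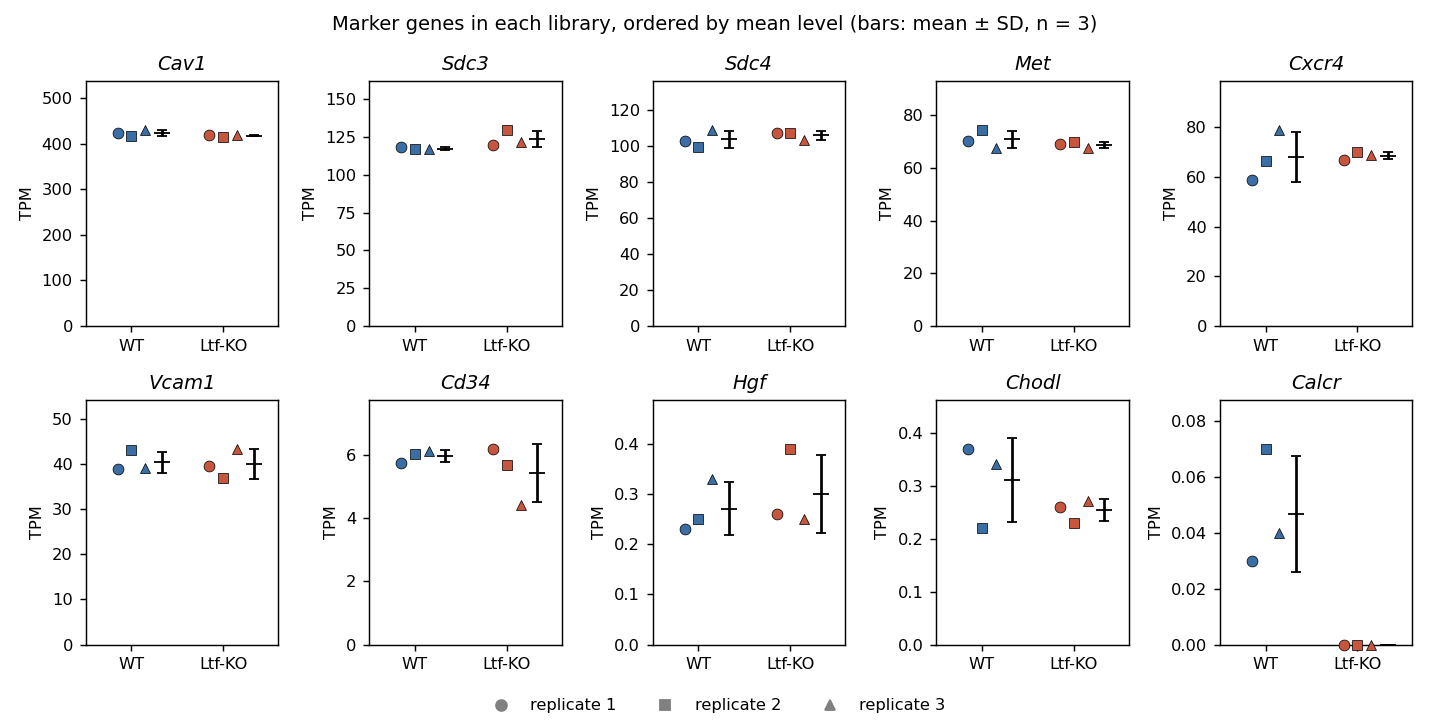
TPM (vertical axes, linear from 0) of the 10 marker genes in each of the 3 WT and 3 *Ltf*-KO libraries, with the mean and SD of each genotype beside the points. The genotypes overlap for all genes but *Sdc3*, where every *Ltf*-KO library lies slightly above the WT libraries, and *Calcr*, listed at 0 in the 3 *Ltf*-KO libraries and at no more than 0.07 TPM in WT.

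None of the marker genes passed the test between genotypes. *Ltf*-KO was compared with WT by limma on log2(TPM + 1) over the 12956 genes whose mean over the libraries reached 1 TPM, a filter that 7 of the 10 marker genes passed. The limma adjusted p was 0.999 for each of these 7 genes, so 0 were called, as were 0% of all genes tested. Before adjustment, 0 of the 7 had a p under 0.05, a level that 3.78% of all genes tested reached. The median log2 fold change of the 7 genes was -0.017, against 0.011 over all genes tested, and 3 of the 7 had the higher mean in *Ltf*-KO SCs (42.9%, against 55.7% of all genes tested). The single estimates ran from -0.12 for *Cd34* to 0.072 for *Sdc3*. On this scale the change of a gene with a low level is understated, which concerns *Cd34* most.

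**Figure D2:**
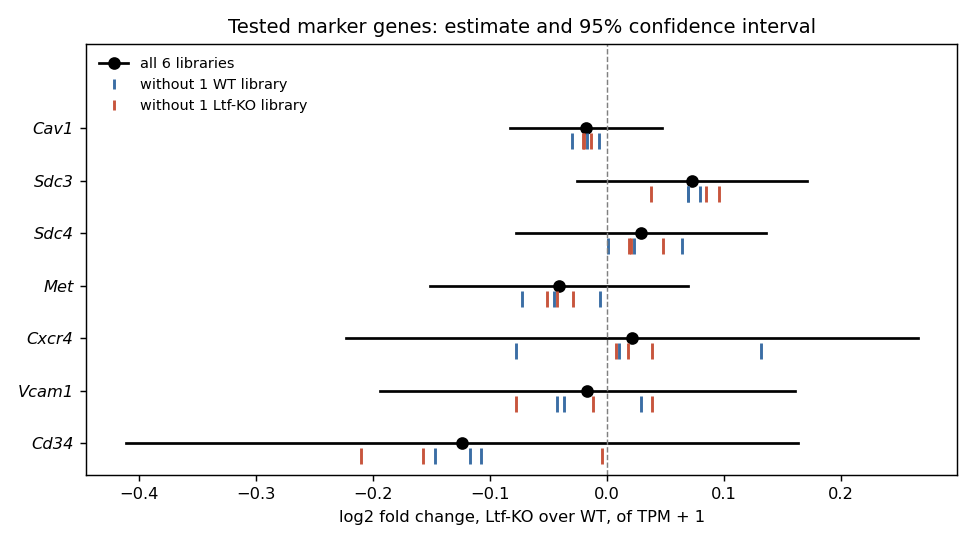
Log2 fold change of *Ltf*-KO over WT on the log2(TPM + 1) scale for the 7 tested marker genes, with the 95% confidence interval of limma as a line and, as ticks under it, the estimates with 1 library left out. All 7 intervals include 0, and the interval is narrowest for *Cav1* (-0.083 to 0.047) and widest for *Cd34* (-0.41 to 0.16).

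The receptors are described first, beginning with MET and its ligand. *Met* (ENSMUSG00000009376), the receptor tyrosine kinase for hepatocyte growth factor, was at 70.4, 74.4 and 67.8 TPM in WT replicates 1 to 3 and at 69.0, 69.8 and 67.7 TPM in *Ltf*-KO replicates 1 to 3. The genotypes overlapped, with the highest value in WT replicate 2 and the lowest in *Ltf*-KO replicate 3. Its means were 70.9 ± 3.36 TPM (SD, n = 3) and 68.8 ± 1.05 TPM (SD, n = 3), and the log2 fold change of -0.041 had a standard error of 0.046 and a 95% confidence interval from -0.15 to 0.069. *Hgf* (ENSMUSG00000028864) was low in these cultures, at 0.23, 0.25 and 0.33 TPM in WT and 0.26, 0.39 and 0.25 TPM in *Ltf*-KO SCs, and was not in the fit. The groups overlapped (two-sided exact permutation p = 0.6, where 3 libraries against 3 cannot go below 0.1). With 2 decimals and no read counts, the *Hgf* values and a ratio formed from them may rest on few reads. The ratio of *Hgf* to *Met* within a library, which does not depend on the scaling of the library, was between 0.00327 and 0.00487 in WT and between 0.00369 and 0.00559 in *Ltf*-KO SCs. Its log2 was higher by 0.18 in *Ltf*-KO (exact permutation p = 0.5), and this difference was -0.013 without *Ltf*-KO replicate 2, the library with the most *Hgf*.

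*Met* lies next to *Cav1* in the mouse RefSeq annotation of GRCm38.p6, and *Cav2* lies on the other side of *Cav1*. With *Calcr*, 3 of the 10 marker genes are on chromosome 6. Levels in this stretch were uneven, with *Cav2* at 23.2 TPM over the 6 libraries beside *Cav1* at 420.5 TPM.

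*Cxcr4* (ENSMUSG00000045382), the receptor for CXCL12, was at 58.7, 66.5 and 78.8 TPM in WT and at 66.9, 69.9 and 68.9 TPM in *Ltf*-KO SCs. All 3 *Ltf*-KO values lay inside the WT range, and the spread was far wider in WT (coefficient of variation 14.9%) than in *Ltf*-KO SCs (2.17%); the difference in spread was not tested. The log2 fold change was 0.021 (standard error 0.10, 95% confidence interval -0.22 to 0.27). It was -0.078 without WT replicate 1 and 0.13 without WT replicate 3, so single WT libraries set its sign. WT replicate 3, highest for *Cxcr4*, also had the highest summed level of 8 endothelial markers (*Pecam1*, *Cdh5*, *Kdr*, *Tek*, *Tie1*, *Emcn*, *Vwf* and *Flt1*), at 18.7 TPM, while WT replicate 1 had 10.4 TPM and WT replicate 2 had 8.05 TPM. *Ltf*-KO replicate 2 came next after WT replicate 3 in both measures, with an endothelial sum of 16.4 TPM and *Cxcr4* at 69.9 TPM. The 2 measures did not go together throughout. *Ltf*-KO replicate 3 had the lowest endothelial sum, 7.84 TPM, with *Cxcr4* at 68.9 TPM, and *Ltf*-KO replicate 1 had 14.2 TPM with *Cxcr4* at 66.9 TPM. Endothelial cells make *Cxcr4* too, and the part of these markers in the *Cxcr4* values was not tested.

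*Calcr* (ENSMUSG00000023964) was near the floor. It was listed at 0.03, 0.07 and 0.04 TPM in WT and at 0 TPM in each of the 3 *Ltf*-KO libraries. The groups did not overlap, and the exact permutation p was 0.1, the smallest this design allows. The table gives 2 decimals and no read counts, so such values may rest on very few reads, and no fold change is given. With no filter on the level, *Calcr*, *Hgf* and *Chodl* entered the limma fit and 0 of the 10 marker genes had an unadjusted p under 0.05.

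The syndecans, transmembrane proteoglycans whose heparan sulphate chains bind growth factors, were both abundant. *Sdc3* (ENSMUSG00000025743) was at 118, 117 and 117 TPM in WT and at 119.5, 129.6 and 121 TPM in *Ltf*-KO SCs. It was the only 1 of the 7 tested marker genes whose genotypes did not overlap (14.3%, where 8.46% of all genes tested did not overlap), and the gap between WT replicate 1 and *Ltf*-KO replicate 1 was small beside the spread of the *Ltf*-KO libraries. The means were 117 ± 0.936 TPM (SD, n = 3) and 123.5 ± 5.34 TPM (SD, n = 3), a log2 fold change of 0.072 (standard error 0.041, 95% confidence interval -0.026 to 0.17), and the limma p before adjustment was 0.123. Without *Ltf*-KO replicate 2 the fold change was 0.038. *Sdc4* (ENSMUSG00000017009) was at 103, 99.6 and 109 TPM in WT and at 107, 107 and 103 TPM in *Ltf*-KO SCs, and here the *Ltf*-KO values lay inside the WT range. Its log2 fold change was 0.029 (95% confidence interval -0.078 to 0.14).

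The ratio of *Sdc4* to *Sdc3* was 0.868, 0.852 and 0.931 in WT and 0.898, 0.826 and 0.848 in *Ltf*-KO SCs, so *Sdc3* was the more abundant in every library. The mean log2 ratio of *Ltf*-KO minus that of WT was -0.044 (exact permutation p = 0.5). The other family members were at 59.9 ± 2.70 TPM (*Sdc1*) and 55.9 ± 1.76 TPM (*Sdc2*) in *Ltf*-KO SCs and at 60.3 ± 1.63 and 56.7 ± 2.88 TPM in WT (SD, n = 3), so all 4 syndecans were expressed.

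Of the adhesion molecules, *Vcam1* (ENSMUSG00000027962) was at 38.9, 43.1 and 39.2 TPM in WT and at 39.6, 36.8 and 43.4 TPM in *Ltf*-KO SCs. The groups overlapped fully, the means were 40.4 ± 2.34 and 39.9 ± 3.32 TPM (SD, n = 3), and the log2 fold change of -0.017 (95% confidence interval -0.19 to 0.16) turned to 0.039 without *Ltf*-KO replicate 2 and to 0.029 without WT replicate 2. *Cd34* (ENSMUSG00000016494), a sialomucin, was at 5.74, 6.03 and 6.12 TPM in WT and at 6.20, 5.69 and 4.41 TPM in *Ltf*-KO SCs. Only *Ltf*-KO replicate 3 stood below the other libraries, and the highest value of all was in *Ltf*-KO replicate 1. The means were 5.96 ± 0.199 and 5.43 ± 0.922 TPM (SD, n = 3), and the log2 fold change of -0.12 (standard error 0.12) was -0.0044 without *Ltf*-KO replicate 3. *Chodl* (ENSMUSG00000022860), a membrane lectin, was at 0.37, 0.22 and 0.34 TPM in WT and at 0.26, 0.23 and 0.27 TPM in *Ltf*-KO SCs (exact permutation p = 0.4), with all *Ltf*-KO values inside the WT range.

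The ratio of *Sdc4*, an abundant transcript here, to *Cd34* was 17.9, 16.5 and 17.8 in WT and 17.3, 18.8 and 23.4 in *Ltf*-KO SCs. The value of *Ltf*-KO replicate 3 stood above those of the other libraries. The mean log2 ratio was higher by 0.18 in *Ltf*-KO SCs (exact permutation p = 0.3), and by 0.054 without that library. The ratio of *Vcam1* to *Calcr* could not be formed, as *Calcr* was 0 in 3 libraries.

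*Cav1* (ENSMUSG00000007655) was the most abundant of the 10 genes and the most even. It was at 424, 416 and 429.9 TPM in WT and at 419, 415 and 419 TPM in *Ltf*-KO SCs, so that the highest library exceeded the lowest by a factor of 1.04. The means were 423 ± 6.85 and 418 ± 2.06 TPM (SD, n = 3). Its log2 fold change was -0.018, and the 95% confidence interval corresponds to a ratio between 0.944 and 1.03 on the log2(TPM + 1) scale. For *Met* that interval ran from 0.901 to 1.05, for *Sdc3* from 0.982 to 1.13, for *Sdc4* from 0.948 to 1.10, for *Vcam1* from 0.874 to 1.12, for *Cxcr4* from 0.857 to 1.20 and for *Cd34* from 0.752 to 1.12. These bounds, and not the p-values, set the size of change that the libraries leave possible.

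Spread within genotypes followed level in most cases. The pooled coefficient of variation was 1.20% for *Cav1*, 3.19% for *Sdc3* and 3.55% for *Sdc4*, where the median gene of 100 TPM or more had 3.80%. It was 3.56% for *Met*, 7.16% for *Vcam1* and 10.6% for *Cxcr4*, where the median gene from 10 to 100 TPM had 6.29%, and 11.7% for *Cd34*, where the median gene from 1 to 10 TPM had 15.8%. Thus 5 of the 7 tested genes varied less than the median gene of their range, and *Vcam1* and *Cxcr4* varied more.

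*Vcam1* went with the differentiation genes from library to library, a pattern singled out after its values were seen. The summed level of 8 differentiation genes (*Myog*, *Mymk*, *Mymx*, *Ckm*, *Myh3*, *Acta1*, *Tnnt1* and *Mylpf*), which mark myocytes that have left the cell cycle, was 3863 TPM in *Ltf*-KO replicate 3, 3330 TPM in WT replicate 2, 2851 TPM in *Ltf*-KO replicate 1, 2590 TPM in WT replicate 1, 2476 TPM in WT replicate 3 and 2447 TPM in *Ltf*-KO replicate 2. *Vcam1* was highest in the same 2 libraries, at a mean of 43.3 TPM against 36.8 to 39.6 TPM in the other 4, and lowest in the same library, *Ltf*-KO replicate 2. Of the 7 tested marker genes, *Vcam1* was the 1 with those 2 libraries at the top. Outside the marker list, *Itga7* had the same order of all 6 libraries as the summed level. *Pax7* was highest in *Ltf*-KO replicate 2 (43.3 TPM), where the summed level was lowest. It was lowest in *Ltf*-KO replicate 3 (36.6 TPM), where the summed level was highest. Between these libraries the order of *Pax7* was not the reverse of the summed level. *Cd34* was lowest in the library where differentiation genes were highest, and *Sdc3* was highest in the library where they were lowest. Neither gene followed the summed level throughout. *Cd34* was at 5.69 TPM in *Ltf*-KO replicate 2, where the summed level was lowest, and at 6.03 TPM in WT replicate 2, where it was second highest. *Sdc3* was at 121 TPM, above every WT library, in *Ltf*-KO replicate 3, where the summed level was highest. Its lowest value was in WT replicate 3. In these bulk libraries a different share of differentiated cells and a different level per cell cannot be told apart.

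**Figure D3:**
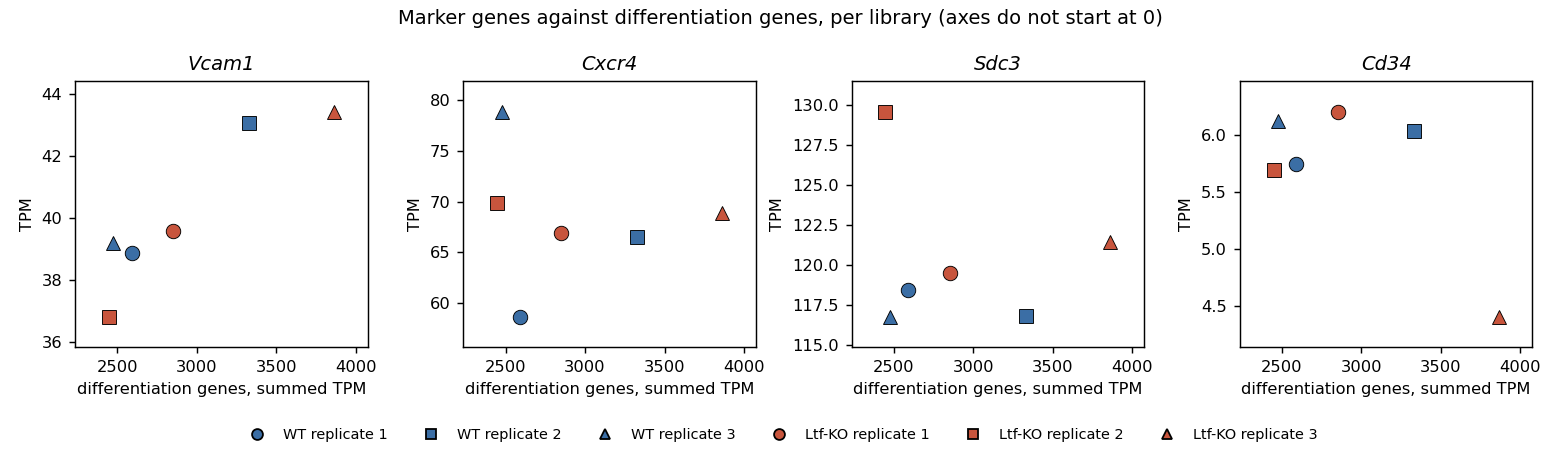
TPM of *Vcam1*, *Cxcr4*, *Sdc3* and *Cd34* (vertical axes, not from 0) against the summed TPM of 8 differentiation genes (horizontal axes) in each of the 6 libraries. WT replicate 2 and *Ltf*-KO replicate 3 lie to the right and have the most *Vcam1*. *Ltf*-KO replicate 3 has the least *Cd34* and *Ltf*-KO replicate 2, at the left, the most *Sdc3*. Neither gene follows the horizontal axis throughout. WT replicate 2, to the right, has more *Cd34* than *Ltf*-KO replicate 2, and *Ltf*-KO replicate 3 has more *Sdc3* than any WT library.

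The genes that work with these markers were taken from 11 lists of 122 genes, of which 105 passed the filter. Of the 105, 4 had an unadjusted p under 0.05 (3.81%, against 3.78% of all genes tested), 3 of them higher (2.01% of all genes tested were) and 1 lower (1.78% of all genes tested) in *Ltf*-KO SCs, and 0 had an adjusted p under 0.05 by limma. The split depended on the scaling, with 1 higher and 2 lower after quantile normalization and 2 each way with median-of-ratios scaling. Over all genes tested it was 260 higher and 230 lower as deposited, 203 and 305 after quantile normalization, and 222 and 280 with median-of-ratios scaling. The median log2 fold change of the 105 genes was 0.021. The 4 genes were *Grb2*, *Sulf1*, *Ext2* and *Egfr*, each with a limma adjusted p of 0.999. Under the replicate block, a fit with the replicate number as a factor, 2 of the 105 had an unadjusted p under 0.05. With 1 library left out this count ran from 1, for WT replicate 2 or *Ltf*-KO replicate 1, to 6, for *Ltf*-KO replicate 3, and it was 2 for WT replicate 3.

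**Figure D4:**
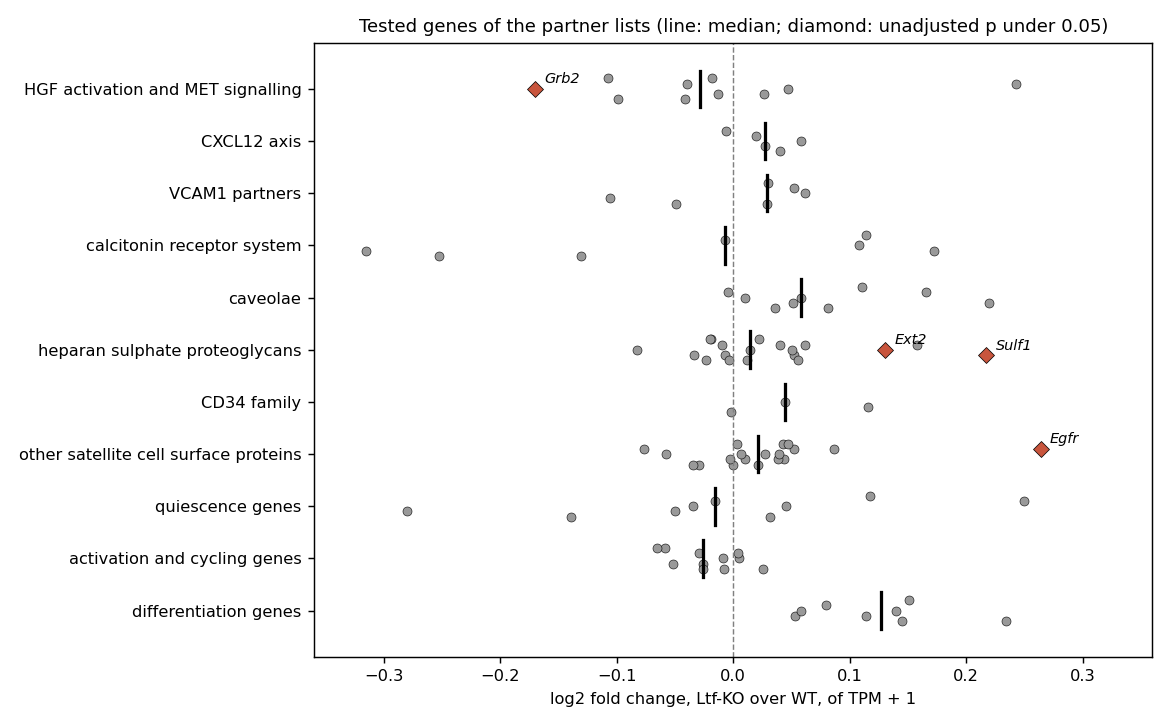
Log2 fold change of *Ltf*-KO over WT on the log2(TPM + 1) scale for the tested genes of the 11 partner lists, 1 point per gene, with the median of each list as a line and genes at an unadjusted p under 0.05 as diamonds. Single genes scatter on both sides of 0 in most lists, and 4 genes are marked, *Grb2* to the left and *Ext2*, *Sulf1* and *Egfr* to the right.

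Around MET and its ligand, 10 of 16 genes were tested and 1, *Grb2*, had an unadjusted p under 0.05 (3.78% of all genes tested did). Of the 10, 3 had the higher mean in *Ltf*-KO SCs, where 55.7% of all genes tested did. *Grb2*, the adaptor that joins the receptor to RAS, was at 88.9, 82.5 and 87.8 TPM in WT and at 75.2, 76.8 and 78.0 TPM in *Ltf*-KO SCs (log2 fold change -0.17, standard error 0.043). Its genotypes did not overlap, as for 8.46% of all genes tested. The urokinase *Plau*, which can cleave the ligand to its active form, and its receptor *Plaur* were abundant, at 255 ± 22.7 and 209 ± 8.03 TPM in WT and 247 ± 19.5 and 207 ± 10.1 TPM in *Ltf*-KO SCs (SD, n = 3). The specific activator *Hgfac* was at 1.10 ± 0.424 and 1.47 ± 0.270 TPM (SD, n = 3). The protease genes *St14* and *Hpn*, their inhibitors *Spint1* and *Spint2*, and the related ligand and receptor pair *Mst1* and *Mst1r* were under the filter.

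*Cxcl12*, the ligand of CXCR4, was made by the cultures themselves, at 169.5 ± 5.68 TPM in WT and 173 ± 11.7 TPM in *Ltf*-KO SCs (SD, n = 3). *Ackr3*, the atypical receptor that takes up the same ligand, was at 76.8 ± 3.78 and 79.1 ± 6.19 TPM. Of the 5 tested genes of this list, 0 had an unadjusted p under 0.05, and *Dpp4*, whose product cuts CXCL12, was under the filter. Of the VCAM1 partners, 6 of 8 genes were tested with 0 at an unadjusted p under 0.05. *Itga4*, the integrin chain that binds VCAM1, was low at 1.16 to 1.53 TPM, while its partner chain *Itgb1* was at 385 ± 12.6 TPM in WT and 400 ± 23.0 TPM in *Ltf*-KO SCs (SD, n = 3). Moesin (*Msn*), which links VCAM1 to actin, was at 472 to 537 TPM.

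In contrast to *Calcr*, collagen V, a ligand of the calcitonin receptor in SCs, was well expressed, with *Col5a2* at 273 ± 15.1 TPM in WT and 272 ± 23.8 TPM in *Ltf*-KO SCs and *Col5a1* at 27.2 ± 2.94 and 29.4 ± 1.05 TPM (SD, n = 3). Of the 7 tested genes of this list, 0 had an unadjusted p under 0.05, with *Ramp2*, a receptor partner, having a log2 fold change of -0.32 (standard error 0.24). The related receptor *Calcrl* was at 4.42 to 9 TPM.

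All 9 caveola genes were tested, and 8 had the higher mean in *Ltf*-KO SCs (7 with median-of-ratios scaling), where 55.7% of all genes tested did. Their median log2 fold change was 0.058, and 0 had an unadjusted p under 0.05. The coat protein gene *Cavin1* was at 179 ± 0.976 TPM in WT and 187 ± 4.78 TPM in *Ltf*-KO SCs (SD, n = 3). The genotypes did not overlap for *Cavin1*, as for 8.46% of all genes tested, while those of *Cav1* did. The limma p of *Cavin1* before adjustment was 0.122. *Cav3*, the muscle caveolin, was at 17.5 to 24.4 TPM in WT and 18.6 to 31.5 TPM in *Ltf*-KO SCs, with its highest value in *Ltf*-KO replicate 3, where the differentiation genes were highest.

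For the heparan sulphate proteoglycans, 19 of 21 genes were tested, with 2 at an unadjusted p under 0.05, both higher in *Ltf*-KO SCs, where 2.01% of all genes tested were. *Sulf1*, which removes sulphate groups from heparan sulphate outside the cell, was at 11.7, 9.75 and 10.96 TPM in WT and at 13.2, 13.0 and 11.9 TPM in *Ltf*-KO SCs (log2 fold change 0.22, standard error 0.083). *Ext2*, a polymerase subunit that builds the chain, was at 45.9, 41.7 and 43.1 TPM in WT and at 49.7, 47.7 and 46.0 TPM in *Ltf*-KO SCs (log2 fold change 0.13, standard error 0.053). The genotypes did not overlap for either gene, as for 8.46% of all genes tested.

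Of the 3 tested genes related to *Cd34* or its signalling, 0 had an unadjusted p under 0.05, and *Podxl*, a sialomucin of the same family, was at 3.91 to 5.44 TPM. Among 19 other surface proteins of SCs, all of them tested, 1 had an unadjusted p under 0.05 (3.78% of all genes tested did). This was *Egfr*, at 7.37, 7.49 and 7.27 TPM in WT and at 10.0, 9.41 and 7.86 TPM in *Ltf*-KO SCs (log2 fold change 0.26, standard error 0.095). The fibroblast growth factor receptor *Fgfr1* was at 93.3 ± 3.82 and 93.6 ± 6.33 TPM, and *Megf10*, a receptor that favours proliferation of SCs, at 88.5 ± 4.01 and 91.5 ± 1.87 TPM (SD, n = 3).

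Quiescence genes gave 0 of 9 tested genes at an unadjusted p under 0.05 and a median log2 fold change of -0.016, and the activation and cycling genes 0 of 11 and -0.026. The higher mean was in *Ltf*-KO SCs for 4 of the 9 quiescence genes and 3 of the 11 activation and cycling genes. Of the latter, *Pcna*, the clamp of replicating DNA polymerase, was at 308, 300.0 and 303 TPM in WT and at 291, 291 and 289 TPM in *Ltf*-KO SCs (log2 fold change -0.065, limma p before adjustment 0.0507). Its genotypes did not overlap, as for 8.46% of all genes tested. The 8 differentiation genes all had the higher mean in *Ltf*-KO SCs, where 55.7% of all genes tested did, with a median log2 fold change of 0.13 and 0 at an unadjusted p under 0.05. This direction rested on *Ltf*-KO replicate 3, without which 1 of the 8 genes was higher and the median was -0.054. Without WT replicate 3, 5 of the 8 were higher and the median was 0.030. Their groups overlapped, from 2476 to 3330 TPM summed in WT and from 2447 to 3863 TPM in *Ltf*-KO SCs.

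Several of the marker genes are also made by other cells of muscle. The summed level of the 8 endothelial markers was 8.05 to 18.7 TPM in WT and 7.84 to 16.4 TPM in *Ltf*-KO libraries. The fibro-adipogenic list (*Pdgfra*, *Ly6a*, *Dcn*, *Lum*, *Col1a1*, *Cd248* and *Dpt*) was at 9.41 to 16.1 TPM and 13.6 to 21.8 TPM, the 6 immune markers at 4.46 to 11.5 TPM and 3.59 to 4.69 TPM and the 4 Schwann cell markers at 11.7 to 21.8 TPM and 13.2 to 19.5 TPM. The 7 smooth muscle and pericyte markers summed to 450 to 534 TPM and 501 to 632 TPM, most of it *Acta2*. In that list 4 genes were tested and 1, *Pdgfrb*, was higher in *Ltf*-KO SCs at an unadjusted p under 0.05, where 2.01% of all genes tested were. *Pdgfrb* was at 4.11 ± 0.526 TPM in WT and 6.42 ± 1.43 TPM in *Ltf*-KO SCs (SD, n = 3), with a limma adjusted p of 0.999. In each of these lists the sums of the genotypes overlapped. The higher mean was in *Ltf*-KO SCs for 5 of 5 tested fibro-adipogenic genes and 4 of 4 tested smooth muscle and pericyte genes. The same held for 3 of 5 tested endothelial, 3 of 4 tested Schwann cell and 0 of 2 tested immune genes, against 55.7% of all genes tested. No marker was at 0 in all 6 libraries. Their part in the levels of *Cd34*, *Vcam1*, *Cxcr4* and *Cav1* was not tested.

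In the table's own annotation, 4 of the 10 genes (*Cd34*, *Vcam1*, *Sdc3* and *Sdc4*) carry the pathway of cell adhesion molecules, which 1.16% of the tested genes with any pathway carry, and 4 (*Met*, *Sdc4*, *Cav1* and *Hgf*) carry proteoglycans in cancer, against 3.47%. *Met*, *Cav1* and *Hgf* also share focal adhesion (3.07%). The genes were chosen for their place at the cell surface, so these shares describe the choice.

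*Cd34* had the widest spread over the 6 libraries among the tested marker genes, with a coefficient of variation of 11.6%. The 3 genes whose log2(TPM + 1) followed it most closely over the 6 libraries were *Gm8186*, *Rreb1* and *Rad9a*, each with a likeness (Pearson) of 0.986 to 0.990. These were picked as the closest of all genes tested over only 6 libraries. In all, 88 genes (0.679% of those tested) reached 0.9, and nothing is drawn from the likeness.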

How the data were processed

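RNA of SCs grown for 4 days was sequenced in 3 WT and 3 *Ltf*-KO libraries. The authors deposited TPM values with 2 decimals for every gene, made by the sequencing company's protocol. The unit was taken from the values. The submitters' processing notes name the build GRCm39, and the aligner, counting tool and annotation are not given in the sources used here. TPM keeps no depth, so precision was judged from the spread between libraries.

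Libraries were grouped by the sample labels. limma 3.58.1 in R 4.3.3 (lmFit and eBayes with a variance trend) was run on log2(TPM + 1) for genes whose mean reached 1 TPM, two-sided, with Benjamini-Hochberg adjustment over all of them and a threshold of 0.05. Marker genes under the filter and ratios were tested by exact permutation over the 20 possible assignments. The fit was run on simulated data with changes larger than those estimated for the marker genes. That run says nothing about changes of the size estimated here. The members and lists were chosen with earlier results of these data known. Named genes were the 10 markers, *Ltf*, sort markers, up to 3 genes of each list by smallest p or highest level, and list genes at an unadjusted p under 0.05. Others (*Cav2*, *Cav3*, *Sdc2*, *Itga4*, *Calcrl*, *Fgfr1*, *Acta2*, *Pdgfrb*) were chosen after their values were seen. Alternatives were a pseudocount of 0.1, no filter, a filter at a mean of 10 TPM, quantile normalization, median-of-ratios scaling, no variance trend, the replicate number as a block and each library left out in turn.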

Additional observations from a re-analysis of the deposited data

How the results depend on the processing

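No tested marker gene (7, 10 with no filter and 6 with the filter at 10 TPM) reached an unadjusted p under 0.05 under any of the 13 alternatives run, and the lowest for the 7 was 0.0716 (limma adjusted p at least 0.946). Of 90 fold changes recomputed for the 7 tested genes, 87 kept their direction. The 3 exceptions left out a library, with *Cxcr4* at -0.078 when WT replicate 1 was left out and at most 0.13 (without WT replicate 3) and *Vcam1* ranging from -0.077 (without *Ltf*-KO replicate 3) to 0.039 (without *Ltf*-KO replicate 2), through 0.029 without WT replicate 2. The log2 difference of the *Hgf* to *Met* ratio ranged from -0.013 to 0.37. Over all genes, limma gave 0 at an adjusted p under 0.05, and 0 to 6 with 1 library left out (6 without WT replicate 2). Genes at an unadjusted p under 0.05 numbered 490, rising to 890 with no filter (26553 genes tested) and falling to 281 with the filter at 10 TPM (8072 genes tested). Of the partner list genes 4 had an unadjusted p under 0.05, against 2 with the filter at 10 TPM, 2 with the replicate block and 1 to 6 with 1 library left out (2 when WT replicate 3 was left out and 6 when *Ltf*-KO replicate 3 was). The cause was not tested.

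WT and *Ltf*-KO libraries with the same replicate number did not deviate together (correlation of deviations over genes -0.041, -0.058 and -0.088 for numbers 1 to 3). The labels do not say whether libraries of the same number were handled together. The replicate block gave 0 genes at an adjusted p under 0.05 and 380 at an unadjusted p under 0.05, and 0 marker genes in both. The filter at 10 TPM leaves *Cd34* untested, and the ratio of *Vcam1* to *Calcr* has no value.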
